A study of Mus musculus with 10 samples.

Results

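The Reg genes encode regenerating lectins, small secreted proteins built around a C-type lectin domain. All 7 Reg genes of the deposited table, Reg1, Reg2, Reg3a, Reg3b, Reg3d, Reg3g and Reg4, were taken by gene symbol from its 54532 genes, a rule that uses no measured value. RNA was measured in epithelial cells from the small intestine of 5 Gucy2c-GFP littermates of the CD1/ICR stock, aged 10 weeks, in which the Gucy2c promoter of a GENSAT transgene drives GFP. From each mouse, 20000 live single cells with high GFP (GUCY2Chi) and 20000 with medium GFP (GUCY2Cmed) were sorted and gave 1 library each. All mice carried the transgene, no treatment is named for any of them, and the groups differ in the GFP gate. Both groups have libraries numbered 2, 7, 12, 14 and 15, and each number was read as that of a mouse. The comparison asks which Reg transcripts distinguish the rare GFP-bright cells from bulk epithelium.

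Reg3b and Reg3g are antimicrobial lectins. Reg3g binds the peptidoglycan of gram-positive bacteria and helps to keep bacteria away from the epithelial surface, and both genes are known to be induced in enterocytes through MyD88 and through interleukin 22 and STAT3. Reg1 and Reg2 were first described in the pancreas, where acinar cells secrete their products. Reg4 stands apart in sequence and position and is known in the gut as a product of enteroendocrine and other secretory cells.

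The GUCY2Chi libraries held 13090212 to 13520800 counted reads each and the GUCY2Cmed libraries 10903958 to 15307932. Levels are given as cpm, counts per 1000000 counted reads after TMM normalization. Of 16 enteroendocrine marker genes, 16 were higher in GUCY2Chi cells by edgeR's quasi-likelihood test at an adjusted p under 0.01, and the summed level of the list was from 36680 to 143983 cpm against 149 to 456 cpm. Rfx6, a transcription factor gene of endocrine cells, rose by 8.47 and Sct, the secretin gene, by 9.07 on the log2 scale. Of 20 enterocyte marker genes, 4 were lower and 0 higher in edgeR. The 4 were Vil1 (villin, -1.81), Apob (apolipoprotein B, -2.30) and the brush border peptidase genes Anpep (-2.65) and Enpep (-2.67). The share of all genes at an unadjusted p under 0.05 was not counted, but at least 17.6% were lower, those at an adjusted p under 0.05. At that unadjusted cutoff 18 of the 20 enterocyte genes were lower and 0 higher. DESeq2 called 16 of them lower, limma-voom 14, and both called 0 higher. Of all genes tested, 13.9% were higher and 8.79% lower in edgeR at an adjusted p under 0.01. The summed level of these enterocyte genes was from 5054 to 5645 cpm in the GUCY2Chi libraries of mice 2, 7 and 14 and 32485 and 33113 cpm in those of mice 12 and 15, against 60498 to 79651 cpm in GUCY2Cmed cells. The GUCY2Chi libraries of mice 12 and 15 thus stood apart from the other 3, and the results for the Reg genes of chromosome 6 are given below with and without them.

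Positions in the table lie on GRCm38 (7 of 7 members overlap their RefSeq position on GRCm38.p6 and 0 of 7 that on NCBIM37), although the sample labels name mm9. Reg3b (chr6:78370657-78373466), Reg3d (chr6:78375874-78378865), Reg3a (chr6:78380709-78383827), Reg2 (chr6:78395623-78408106), Reg1 (chr6:78422711-78428667) and Reg3g (chr6:78466269-78468872) lie in this order on chromosome 6, within 98216 bases that hold no other gene of the table. Reg3d and Reg3g are on the minus strand and the other 4 on the plus strand. Reg4 (chr3:98222156-98236748, plus strand) is on chromosome 3. The 250 bases before the RefSeq start site are shown for the most abundant member of each kind, Reg4 and Reg1, and for Reg3b and Reg3g, a pair that is compared below within each library. They are from RefSeq (GRCm38.p6), written along the gene's strand, and the capitals mark exact runs of at least 12 bases that another Reg promoter of chromosome 6 also held. Reg4 is at chr3:98221906-98222155, Reg1 at chr6:78425733-78425982, Reg3b at chr6:78370635-78370884 and Reg3g, on the minus strand, at chr6:78468875-78469124.
Reg4: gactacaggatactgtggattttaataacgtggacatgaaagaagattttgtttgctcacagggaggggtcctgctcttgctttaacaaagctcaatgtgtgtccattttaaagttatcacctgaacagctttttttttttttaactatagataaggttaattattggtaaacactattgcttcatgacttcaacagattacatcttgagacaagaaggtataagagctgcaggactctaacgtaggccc
Reg1: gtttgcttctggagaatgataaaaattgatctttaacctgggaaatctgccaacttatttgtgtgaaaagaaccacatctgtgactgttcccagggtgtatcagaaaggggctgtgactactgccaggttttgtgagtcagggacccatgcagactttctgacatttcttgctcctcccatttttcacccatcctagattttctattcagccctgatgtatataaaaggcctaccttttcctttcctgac
Reg3b: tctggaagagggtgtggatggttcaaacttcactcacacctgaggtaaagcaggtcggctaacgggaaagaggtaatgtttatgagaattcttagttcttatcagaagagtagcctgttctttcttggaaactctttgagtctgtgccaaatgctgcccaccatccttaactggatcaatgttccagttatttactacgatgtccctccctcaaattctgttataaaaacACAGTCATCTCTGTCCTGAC
Reg3g: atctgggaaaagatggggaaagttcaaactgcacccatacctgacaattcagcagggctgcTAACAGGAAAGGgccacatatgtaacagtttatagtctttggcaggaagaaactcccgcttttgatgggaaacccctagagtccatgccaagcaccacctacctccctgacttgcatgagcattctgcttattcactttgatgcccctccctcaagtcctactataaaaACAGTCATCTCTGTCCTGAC
Reg3b and Reg3g shared the 20 bases directly before the start site (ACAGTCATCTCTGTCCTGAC), and no other of 32851 promoters of this length held this run, which 2 held in all. Reg4 and Reg1 shared no run of 12 bases with any Reg promoter of chromosome 6. The letters TATAAA, searched on both strands, occurred in 4 of the 7 Reg promoters and in 12.4% of all, from base 30 before the start site in Reg1 and from base 27 in Reg3g. The STAT letters TTCNNNGAA occurred in Reg3b and Reg3d and in 7.02% of all promoters, and the forkhead letters TGTTTAC in Reg4, from base 83, and in 3.17% of all. These are matches of letters only. No 50-base window of the coding transcripts of 1 member (GENCODE M1) occurred in those of another, so reads of that length that matched these transcripts exactly could be told apart. Counted sequence outside these transcripts was not compared. Reg3g, for example, had 725 such windows, where the deposited gene length is 2114 bases.

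Reg4 was the most strongly expressed Reg gene of GUCY2Chi cells by mean FPKM, a level per gene length, and was higher there than in GUCY2Cmed cells in 5 of 5 mice. Its level in GUCY2Chi cells was 17869 cpm in mouse 2, 22572 in mouse 7, 24189 in mouse 12, 42297 in mouse 14 and 7083 in mouse 15. In GUCY2Cmed cells of the same mice it was 110, 265, 157, 322 and 284 cpm. The lowest GUCY2Chi library thus lay far above the highest GUCY2Cmed library, and mouse 14 was highest in both groups. The means were 22802 ± 12781 cpm (SD, n = 5) and 227 ± 89.8 cpm (SD, n = 5), a ratio of 100.3. In edgeR its log2 fold change came to 6.65 with a standard error of 0.61 (adjusted p = 2.36e-05). The exact two-sided permutation test gave p = 0.00794, the smallest that 5 libraries against 5 allow when the pairing by mouse is ignored. Here and below this test shuffled all libraries without regard to the mouse. Of all 15703 genes tested, 13.9% were higher in GUCY2Chi cells at an adjusted p under 0.01 in edgeR. Within a mouse the GUCY2Chi level was from 25.0 times, in mouse 15, to 162 times, in mouse 2, the GUCY2Cmed level.

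This secretory lectin took a large part of the sequenced RNA. It held from 0.844% to 4.195% of all counts in GUCY2Chi libraries and from 0.0108% to 0.0289% in GUCY2Cmed libraries. Ranked by counts among all genes it was first in the GUCY2Chi library of mouse 14, within the top 5 in the other 4, and between ranks 594 and 1584 in GUCY2Cmed cells. Mouse 15, with the lowest Reg4 level, also had the lowest summed level of the enteroendocrine list, 36680 cpm.

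**Figure D1:**
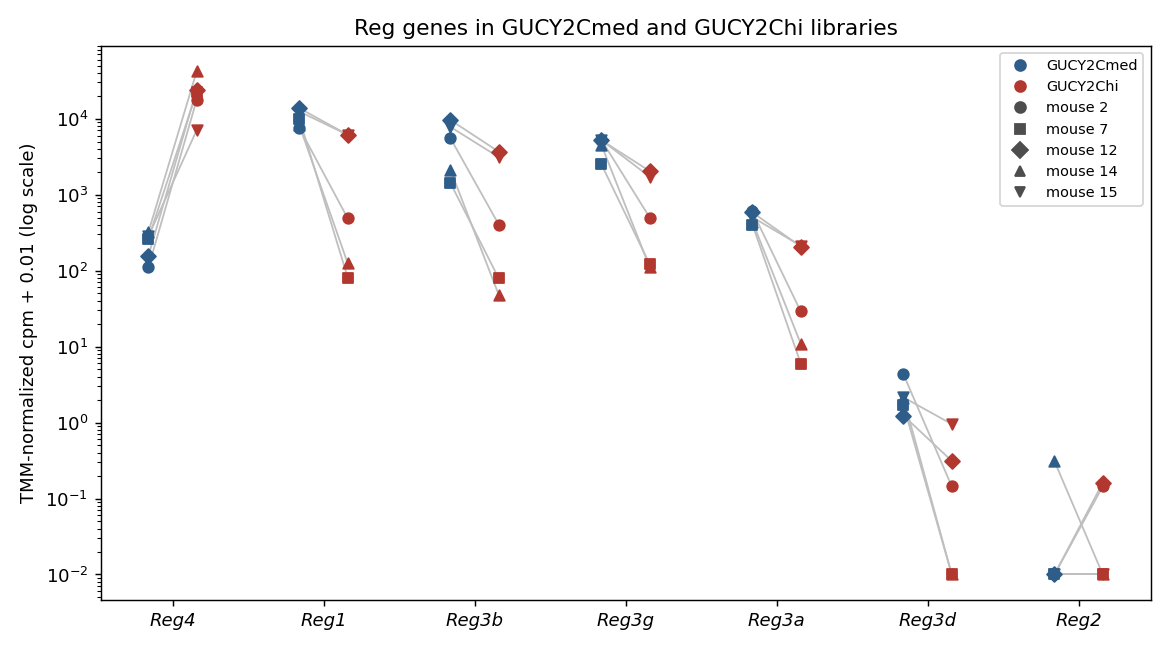
Level of each Reg gene in each library as TMM-normalized cpm plus 0.01, on a log axis. Blue points are GUCY2Cmed and red points GUCY2Chi libraries, marker shapes are mice, and grey lines join the libraries of a mouse. Reg4 rose in all 5 mice to between 7083 and 42297 cpm, whereas Reg1, Reg3b, Reg3g, Reg3a and Reg3d were lower in GUCY2Chi cells in every mouse, with mice 12 and 15 the least so.

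The members on chromosome 6 had lower levels in GUCY2Chi cells, by differences that did not pass the threshold. Of these 6 genes, 5 were abundant enough to be tested (more than 0.5 cpm in at least 3 libraries), and all 5 were lower in GUCY2Chi cells in 5 of 5 mice, as were 23.1% of all genes tested. Reg3d passed this filter only through GUCY2Cmed cells, the group where it was higher. None of the 5 passed the adjusted p of 0.01 in edgeR, a threshold that 8.79% of all genes passed as lower. DESeq2 called 3 of the 5 members (14.2% of all genes) and limma-voom 2 (11.4%). When the mouse entered the model as a replicate block, edgeR called 0 (4.96% of all genes) and limma-voom 4 (8.8%). At an adjusted p under 0.05 in edgeR 3 members (Reg3a, Reg3d and Reg3g) passed, as did 17.6% of all genes. Their median log2 fold change was -2.34, against 0.09 over all genes tested. The groups did not overlap for 4 of the 5, Reg3b being the exception, and for 13.2% of all genes in this direction (16.7% in the other, that of Reg4). In sorted cells measured in bulk, fewer cells that express a gene and less of its RNA per cell cannot be told apart.

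Reg1, the most abundant of them by mean FPKM, had 486 cpm in mouse 2, 80.8 in mouse 7, 6131 in mouse 12, 124 in mouse 14 and 6131 in mouse 15 in GUCY2Chi cells. In GUCY2Cmed cells it had 7510, 9896, 13739, 8143 and 12403 cpm. The GUCY2Chi values fell into a low set of 3 and a high set of 2, and even the high ones lay below every GUCY2Cmed library. The means were 2591 ± 3236 cpm (SD, n = 5) and 10338 ± 2685 cpm (SD, n = 5). The log2 fold change of -2.0 (standard error 1.04) did not pass the threshold (adjusted p = 0.153 from edgeR). The exact permutation test of the single gene, which ignored the pairing by mouse, gave p = 0.00794.

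Reg3b, an antimicrobial lectin gene, varied the most of the tested members among the GUCY2Cmed libraries. In GUCY2Chi cells it had 404 cpm in mouse 2, 79.0 in mouse 7, 3674 in mouse 12, 47.9 in mouse 14 and 3116 in mouse 15, and in GUCY2Cmed cells 5530, 1423, 9603, 2121 and 7785 cpm. The GUCY2Chi libraries of mice 12 and 15 were higher than the GUCY2Cmed libraries of mice 7 and 14, so the groups overlapped. The means were 1464 ± 1779 cpm (SD, n = 5) and 5292 ± 3531 cpm (SD, n = 5), with a log2 fold change of -1.85 in edgeR (standard error 1.07, adjusted p = 0.198). Its exact permutation p was 0.0635. Among GUCY2Cmed libraries alone its highest level was 6.75 times its lowest, compared with 1.83 times for Reg1 and 1.49 times for Reg3a.

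Reg3g had 497 cpm in mouse 2, 121 in mouse 7, 2041 in mouse 12, 110 in mouse 14 and 1717 in mouse 15 in GUCY2Chi cells. The GUCY2Cmed libraries had 5248, 2505, 5204, 4507 and 5226 cpm. Every GUCY2Chi library was below every GUCY2Cmed library, with mice 12 and 15 the closest. This gave a log2 fold change of -2.34 in edgeR (standard error 0.76, adjusted p = 0.0305), from means of 897 ± 917 cpm (SD, n = 5) and 4538 ± 1178 cpm (SD, n = 5). The exact permutation p was 0.00794.

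Reg3a, a further member of the Reg3 group, had 29.0 cpm in mouse 2, 5.96 in mouse 7, 207 in mouse 12, 10.9 in mouse 14 and 212 in mouse 15 in GUCY2Chi cells. In GUCY2Cmed cells its levels were close to each other, 600, 404, 583, 441 and 505 cpm. The groups were separate, at 93.1 ± 107 cpm (SD, n = 5) and 507 ± 85.7 cpm (SD, n = 5). The edgeR estimate of the log2 fold change, -2.44 with a standard error of 0.86, had an adjusted p of 0.0410. The exact permutation p was 0.00794.

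Reg3d had few counts, and Reg2 was at the limit of detection. Reg3d had 2, 0, 4, 0 and 15 counts in GUCY2Chi cells of mice 2, 7, 12, 14 and 15 and 46, 21, 17, 28 and 25 counts in GUCY2Cmed cells. In edgeR this was a log2 fold change of -2.99 with a standard error of 0.88 (adjusted p = 0.0193, exact permutation p = 0.00794). Among GUCY2Chi libraries Reg3d exceeded 0.5 cpm only in mouse 15, so it was tested only through GUCY2Cmed cells, where it was higher. Without the GUCY2Chi library of mouse 15, which held most of the counts of that group, the log2 fold change was -4.28 (adjusted p = 0.00260 from edgeR). It then passed the threshold, as did 10.4% of all genes. A larger difference without that library, the highest of its group, was fixed in advance. Reg2 had 2 counts in each of the GUCY2Chi libraries of mice 2 and 12, 4 in the GUCY2Cmed library of mouse 14 and none in the other 7, and was not tested. A count of 0 allows up to 3 counts, between 0.181 and 0.281 cpm in these libraries, so a difference in Reg2 was not detectable at this depth. Reg2 is known from pancreatic acinar cells, and of 16 acinar genes 7 had no count in any library, among them Prss2, a trypsinogen gene, and Cpa1, a carboxypeptidase gene. The summed level of the acinar list was from 82.8 to 230 cpm in GUCY2Chi and from 38.2 to 85.6 cpm in GUCY2Cmed cells and came mostly from Clps and Cela1. Cela1, an elastase gene, was higher in GUCY2Chi cells (log2 fold change 1.05, adjusted p = 0.00169 from edgeR), while Clps, the colipase gene, did not pass (1.15, adjusted p = 0.0237).

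The GUCY2Chi libraries of mice 12 and 15, which held most of the enterocyte transcripts of that group, also held most of its Reg1 and Reg3 transcripts. In mouse 12 the GUCY2Chi level of the summed enterocyte list was 46.0% of the GUCY2Cmed level, and that of Reg1 was 44.6%, of Reg3a 35.6%, of Reg3b 38.3% and of Reg3g 39.2%. In mouse 15 the list was at 42.5% and these 4 genes were at 49.4%, 42.1%, 40.0% and 32.9%. In mouse 2 the list was at 6.93%, Reg1 at 6.48%, Reg3a at 4.82%, Reg3b at 7.30% and Reg3g at 9.48%. These 4 Reg genes thus stood near the enterocyte list in these 3 mice. Reg3d, on few counts, was at 24.7% in mouse 12, 44.1% in mouse 15 and 3.12% in mouse 2.

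In the other two mice they stood below it, and Reg3d had no count in GUCY2Chi cells. In mouse 7 the list was at 8.35%, Reg1 at 0.816%, Reg3a at 1.48%, Reg3b at 5.55% and Reg3g at 4.81%. In mouse 14 the list was at 8.11% and the 4 genes were between 1.53% (Reg1) and 2.46% (Reg3a). The part of the enterocyte transcripts in the Reg results was not tested. The GUCY2Chi libraries of mice 12 and 15 held the highest levels of their group for each of the 5 tested members. A larger difference without them was therefore fixed in advance. Without these libraries, all 5 tested members passed the threshold in edgeR, as did 14.4% of all genes as lower. Their log2 fold changes were then -5.48 for Reg1 (adjusted p = 1.44e-04), -5.04 for Reg3a (4.48e-05), -4.89 for Reg3b (0.00266), -5.37 for Reg3d (0.00107) and -4.21 for Reg3g (3.44e-04). Without both libraries of these mice 4 of the 5 passed, with Reg3b at -4.10 (adjusted p = 0.0125 from edgeR), beside 10.7% of all genes.

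**Figure D2:**
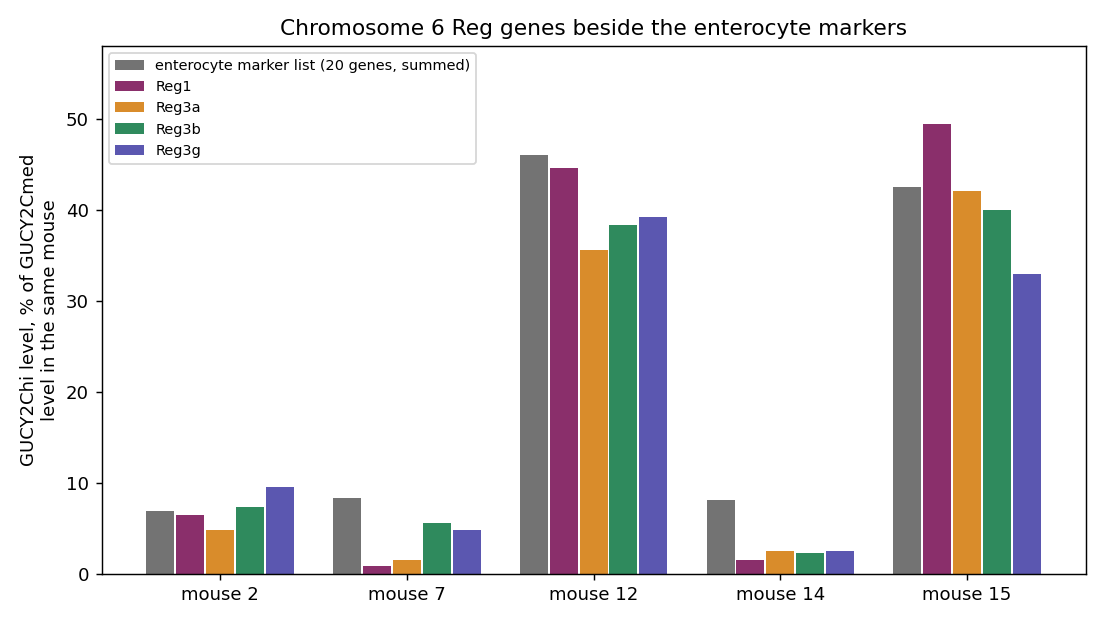
Level in GUCY2Chi cells as a percentage of the level in GUCY2Cmed cells of the same mouse, for the summed 20 enterocyte markers (grey) and for Reg1, Reg3a, Reg3b and Reg3g (colours). Each bar is 1 mouse without replication. Mice 12 and 15 lie between 32.9% and 49.4%, and the other 3 below 10%, with Reg1 at 0.816% in mouse 7.

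Within a library, the ratio of Reg3b to Reg3g was close in both fractions of a mouse and differed more between mice. In GUCY2Cmed cells the count of Reg3b was 1.05 times that of Reg3g in mouse 2, 0.568 times in mouse 7, 1.85 times in mouse 12, 0.471 times in mouse 14 and 1.49 times in mouse 15. In GUCY2Chi cells of the same mice the ratios were 0.812, 0.655, 1.80, 0.434 and 1.81. The mice thus spanned about the same range in both fractions, whereas the ratio in GUCY2Chi cells was between 0.770 and 1.22 times that in GUCY2Cmed cells of the same mouse. The order of the mice was the same in both fractions but for mice 12 and 15. This is a description of 5 mice. The ratio of Reg1 to Reg3g was not kept in this way, being 3.95 in GUCY2Cmed and 0.670 in GUCY2Chi cells of mouse 7. Among the ratios computed, that of Reg3b to Reg3g was the closest between the fractions. The GUCY2Chi ratio was from 0.17 to 1.5 times the GUCY2Cmed ratio of the same mouse for Reg1 to Reg3g. It was from 0.306 to 1.28 times for Reg3a to Reg3g and from 0.81 to 6.8 times for Reg3b to Reg1.

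**Figure D3:**
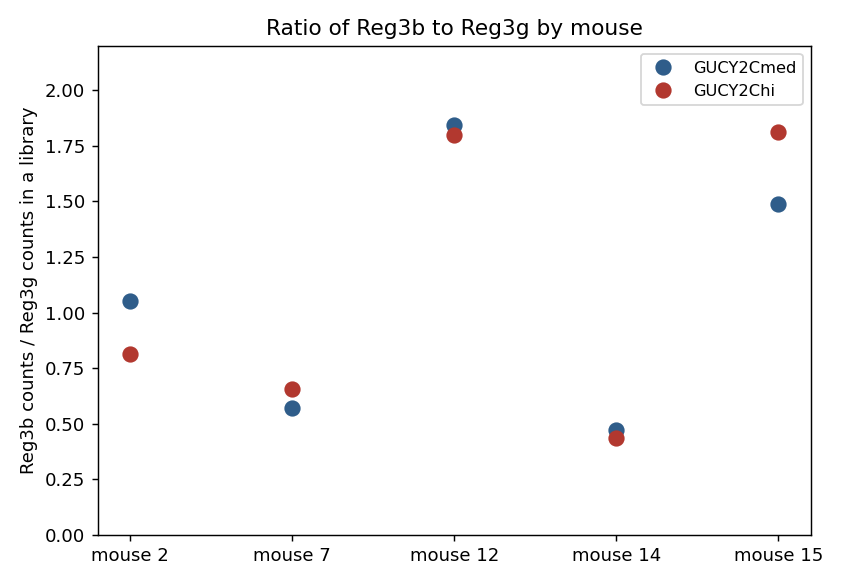
Counts of Reg3b divided by counts of Reg3g in each library, by mouse, for GUCY2Cmed (blue) and GUCY2Chi (red) cells. The GUCY2Chi ratio lies between 0.770 and 1.22 times the GUCY2Cmed ratio of the same mouse. The GUCY2Chi and GUCY2Cmed ratios are closest in mouse 12 (1.80 and 1.85) and mouse 14 (0.434 and 0.471). They lie farther apart in mouse 2 (0.812 and 1.05), mouse 7 (0.655 and 0.568) and mouse 15 (1.81 and 1.49).

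To compare levels between genes, the deposited FPKM, which are per gene length, were used. In GUCY2Cmed cells the order was Reg1 (11474 ± 2652 FPKM, SD, n = 5), Reg3b (8059 ± 5267), Reg3g (2876 ± 746), Reg3a (560 ± 111), Reg4 (200 ± 74.4), Reg3d (3.22 ± 1.85) and Reg2 (0.0773 ± 0.173). Reg1 and Reg3b did not differ beyond their spread, and the ranges of Reg3b and Reg3g overlapped, although Reg3b was above Reg3g within each library. In GUCY2Chi cells Reg4 came first with 23979 ± 12009 FPKM (SD, n = 5), followed by Reg1 (3477 ± 4372), Reg3b (2692 ± 3239), Reg3g (682 ± 686) and Reg3a (123 ± 143). The SDs of these 4 exceeded their means, with mice 12 and 15 high for each. Within each of the 5 libraries the FPKM order was nevertheless Reg3b, Reg3g, Reg3a, while Reg1 came before Reg3b in 3 libraries and after it in mice 2 and 7. Reg4 made up from 0.407% to 1.79% of the summed FPKM of the 7 genes in GUCY2Cmed cells. In GUCY2Chi cells it made up 91.3% in mouse 2, 98.6% in mouse 7, 60.5% in mouse 12, 99.2% in mouse 14 and 32.7% in mouse 15. In the GUCY2Cmed library of mouse 14 the FPKM imply a length of 590 bases for Reg3b, where the table gives 1142. They imply 1430 against 2114 for Reg3g, 813 against 904 for Reg1, 696 against 952 for Reg2 and 656 against 782 for Reg3d. The lengths of Reg3a and Reg4 were the same. With the table's lengths the order of the 7 genes changed in 6 of the 10 libraries. Among these changes Reg4 came before Reg1 in the GUCY2Chi library of mouse 15, and Reg3g before Reg3b in both libraries of mouse 14.

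**Figure D4:**
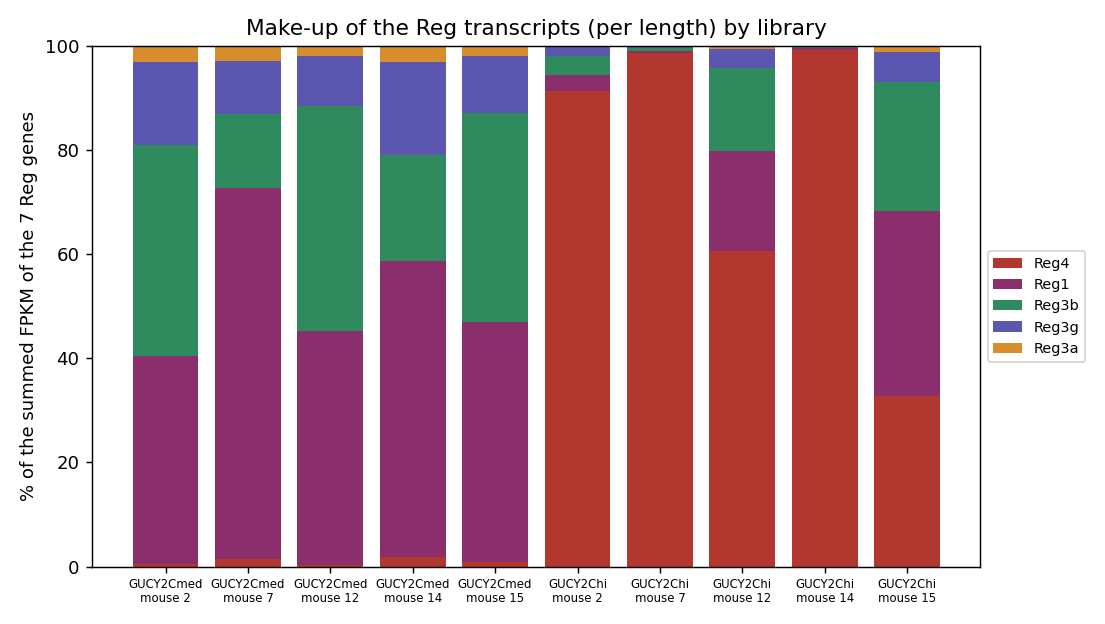
Share of each Reg gene in the summed FPKM of the 7 genes, in percent, for the 5 GUCY2Cmed (left) and 5 GUCY2Chi (right) libraries; Reg2 and Reg3d are too small to be seen. Reg1, Reg3b and Reg3g fill the GUCY2Cmed bars, and Reg4 takes between 32.7% and 99.2% of the GUCY2Chi bars.

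Likeness was measured on log2 cpm with a prior count of 2, which draws low levels together. Among 9972 other tested genes with at least 5 cpm on average, the genes whose centred log2 levels over the 10 libraries lay nearest to those of Reg4 were Serpinf2, the gene of a plasmin inhibitor (root mean square difference 0.301), Bcam, a cell adhesion gene (0.358), and F2, which encodes prothrombin (0.383). These 3 genes reached 5 cpm on average only through GUCY2Chi cells. In GUCY2Cmed cells they averaged 2.26, 2.14 and 0.0963 cpm. The value of F2, under the floor of 3 counts there, therefore rests on the prior count. Nearest to Reg1 were S100g, a calcium-binding protein gene of enterocytes (0.420), H2-Q1 (0.484) and Reg3a (0.486). Nearest to Reg3g were Clec2h, a further lectin gene (0.334), Chp2 (0.372) and Cndp1 (0.376). Reg3a lay nearest to H2-Q1 (0.328), Slc25a45 (0.340) and Ces1f (0.386). Reg3b had no near neighbour of this kind, with S100g at 0.608, Reg3g at 0.792 and Reg1 at 0.803. The 10 libraries share the contrast between the groups and, by pairs, the mice.

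The pathways known to induce the Reg3 lectins were measured through lists of their genes. Of 16 genes from the interleukin 22, 6 and 17 receptors to STAT3, 15 were tested, with a median log2 fold change of -0.47. In edgeR 1 was higher and 2 were lower in GUCY2Chi cells, beside 13.9% and 8.79% of all genes. DESeq2 called 3 of the list lower (14.2% of all genes) and limma-voom 2 (11.4%). At an unadjusted p under 0.05 in edgeR 6 of the list were lower, beside at least 17.6% of all genes. Il6ra, an interleukin 6 receptor subunit, had at most 2 counts in any GUCY2Cmed library and rose to 6.47 cpm on average (adjusted p = 1.86e-04 from edgeR). Il6ra passed the filter only through GUCY2Chi cells, so it could not have been called lower. Il17rc, an interleukin 17 receptor subunit, fell from 249 to 88.1 cpm (log2 fold change -1.50, adjusted p = 0.00499), and Pim1, a kinase gene and STAT target, from 18.4 to 3.49 cpm (-2.39, 0.00148). Socs3, also a STAT target, lay the other way and did not pass (0.24, adjusted p = 0.479 from edgeR). Stat3 itself did not pass either (-0.40, 0.162). Il22ra1, a subunit of the interleukin 22 receptor, had 2.63 cpm in GUCY2Chi and 4.71 cpm in GUCY2Cmed cells and did not pass (adjusted p = 0.0726).

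Of a list of 15 genes of Toll-like receptor and MyD88 signalling and related sensing, 13 were tested, with a median log2 fold change of -0.20. In edgeR 3 were higher (13.9% of all genes) and 1 was lower (8.79%). Among the called genes, Nod1 is not a Toll-like receptor and Ticam1 acts without MyD88. Myd88 itself had 29.6 cpm in GUCY2Chi and 42.9 cpm in GUCY2Cmed cells and did not pass (-0.54, adjusted p = 0.0262 from edgeR). Tlr2, a receptor of bacterial lipoproteins, rose from 1.79 to 40.1 cpm (log2 fold change 4.48, adjusted p = 1.84e-04 from edgeR). Tlr5, the flagellin receptor, had at most 1 count in any GUCY2Cmed library and 2.57 cpm in GUCY2Chi cells (adjusted p = 3.88e-04). Like Il6ra, Tlr5 passed the filter only through GUCY2Chi cells and could not have been called lower. Nod1, an intracellular peptidoglycan sensor, rose from 1.13 to 5.13 cpm (log2 fold change 2.19, adjusted p = 0.00737). Ticam1, the adaptor of Tlr3, fell from 27.2 to 12.4 cpm (-1.13, adjusted p = 0.00135).

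Of 22 other antimicrobial and inducible epithelial products 18 were tested, and their median log2 fold change was -1.38, with 12 of the 18 below 0. The summed level of the list overlapped, at 9648 to 59350 cpm in GUCY2Chi and 17990 to 33089 cpm in GUCY2Cmed libraries. Lyz1, a lysozyme gene, had 11004 and 6227 cpm and did not pass (0.82, adjusted p = 0.243 from edgeR). Zg16 is also in the goblet list described below. In edgeR 1 gene of the list was higher (13.9% of all genes) and 2 were lower (8.79%). DESeq2 called 6 of the list lower (14.2% of all genes) and limma-voom 4 (11.4%). At an unadjusted p under 0.05 in edgeR 8 of the list were lower, beside at least 17.6% of all genes. Fut2, a fucosyltransferase gene, rose from 0.540 to 11.8 cpm (log2 fold change 4.43, adjusted p = 0.00122 from edgeR). Pigr, the receptor that carries immunoglobulin A across the epithelium, fell from 2620 to 586 cpm (-2.16, adjusted p = 0.00243), and Nlrp6, an innate sensor gene, from 199 to 44.5 cpm (-2.16, adjusted p = 0.00499). Without the GUCY2Chi libraries of mice 12 and 15, 7 genes of this list were lower, as were 14.4% of all genes, and 1 was higher. Of the Paneth list, 12 genes of the crypt cells that make antimicrobial peptides, 11 were tested and 0 were called in edgeR, DESeq2 or limma-voom. At an unadjusted p under 0.05 in edgeR 2 of them were higher and 0 lower, beside at least 3367 and 2767 of all 15703 genes. The median log2 fold change of the Paneth list was 0.82, and Lyz1, Itln1, Ang4 and Pla2g2a are in both lists. Extl3, proposed as a receptor for Reg proteins, had 5.71 cpm in GUCY2Chi and 3.89 cpm in GUCY2Cmed cells and did not pass (log2 fold change 0.55, adjusted p = 0.101), while of the 4 other exostosin genes Extl2 was higher (1.18, adjusted p = 0.00125) and Ext1 lower (-1.54, adjusted p = 0.00487).

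**Figure D5:**
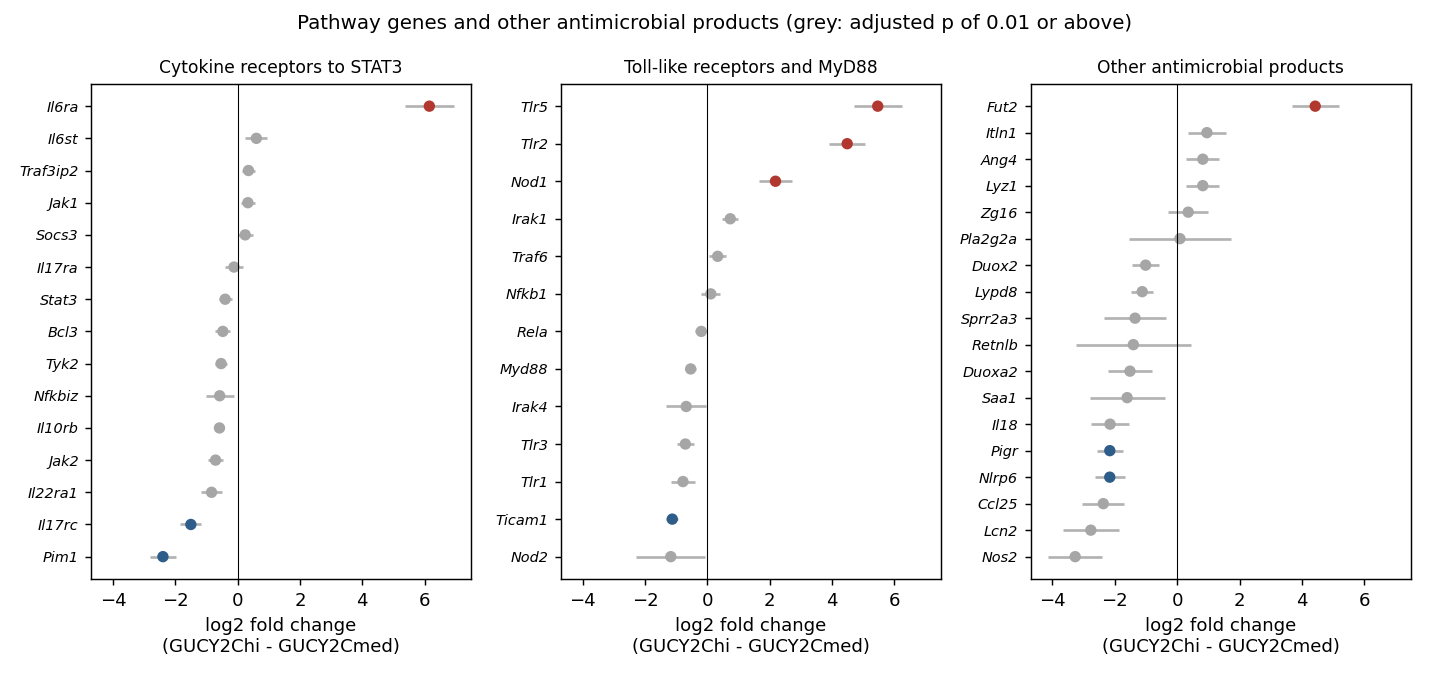
Log2 fold changes (GUCY2Chi minus GUCY2Cmed) of the tested genes of 3 lists, with bars of 1 standard error. Red and blue points passed an adjusted p of 0.01 as higher and lower, and grey points did not. Il6ra, Tlr5, Tlr2 and Fut2 lie farthest to the right, Nod1 lies at 2.19, and most other genes lie near or left of 0. The fitted values of Il6ra and Tlr5 rest on at most 2 and 1 counts per GUCY2Cmed library.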

How the data were processed

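RNA from sorted GUCY2Chi and GUCY2Cmed cells was measured in 10 libraries, 5 per group. Read counts per gene, as deposited, are raw whole numbers that the sequencing provider made from paired-end reads aligned with STAR (version not given in the sources used here), to mm9 according to the labels. The FPKM values, as deposited, divide counts by a gene length that is not always that in the table. The labels' processing notes name limma 3.40.6 and edgeR 3.26.8, with which the authors made 2 tables of fold changes, test statistics and p-values, and 10 further columns hold counts normalized by the provider. None of these was used.

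The 15703 of 54532 genes that exceeded 0.5 cpm in 3 or more libraries were compared with edgeR 4.0.16 (quasi-likelihood test, trimmed mean of M-values (TMM), no term for the mouse, Benjamini-Hochberg over all 15703 genes, threshold 0.01) in R 4.3.3, beside limma-voom (limma 3.58.1) and DESeq2 1.42.0. Exact two-sided permutation tests used log2(cpm + 1) and shuffled all 10 libraries without regard to the mouse, so their p-values ignore the pairing. Alternatives were other tools, normalizations, filters, thresholds, a term for the mouse and leaving out libraries. Scripts were tested on simulated data. The methods state that each mouse was sorted into both groups, so libraries of the same number were taken as paired. The deviations of such pairs from their group means correlated by -0.223 to 0.272 over 15703 genes. For 1 of 5 GUCY2Chi libraries, that of mouse 12, the GUCY2Cmed library of the same number was the one with the highest correlation. Named are all 7 members, the 2 genes of each list with the smallest p among those called in each direction, and the 3 genes nearest in pattern to each member with at least 5 cpm. Prss2, Cpa1, Clps, Il22ra1, Nod1, Extl3, Anpep, Enpep, Birc5 and Ccnb1 were named after their values were seen. So were Myd88, Socs3, Stat3, Lyz1, Itln1, Ang4, Pla2g2a and Zg16. The members and lists were chosen with earlier results of these data known. Floors of 3 counts cover counting error only.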

Additional observations from a re-analysis of the deposited data

Results flagged for a closer look

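In GUCY2Cmed cells of mouse 7, Reg3g had 2505 cpm, against 4507 to 5248 cpm in the other 4 libraries of the group. The gap to the next library was 0.730 of the whole range of the group, above the critical value of 0.71 of Dixon's test for 5 samples. It was the lowest library of the group for Reg3a and Reg3b too. Of 12 groups tested this was the 1 that passed, and chance alone passes about 1 in 20.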

How the results depend on the processing

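The rise of Reg4 passed the threshold under all 22 alternatives (adjusted p from 2.22e-50 to 8.42e-04), and it was the 1 member called higher in each. No result reversed under any alternative, and the cause of the changes below was not tested. The 5 tested members of chromosome 6 kept a log2 fold change below 0 throughout, but their calls varied. DESeq2 called Reg3a (-2.41), Reg3d (-2.99) and Reg3g (-2.31), 3 members, and 2235 genes as lower. Limma-voom called Reg3a (-3.71) and Reg3d (-3.84), 2 members. With the mouse number as replicate block, limma-voom called Reg1 (-4.06), Reg3a (-3.72), Reg3b (-3.47) and Reg3g (-3.37), 4 members, whereas edgeR called none of the 5, 1294 genes as higher and 779 as lower, against 2186 and 1381 without the block. In that blocked edgeR fit their adjusted p was between 0.0144 and 0.0426. The GUCY2Chi libraries of mice 12 and 15 were the highest of their group for each of these members, which fixed a larger difference without them. Without them the values were -5.48 for Reg1, -5.04 for Reg3a, -4.89 for Reg3b, -5.37 for Reg3d and -4.21 for Reg3g, all 5 called, with 2186 genes lower. Without both libraries of these mice, an alternative chosen after seeing the data, they were -5.22 for Reg1, -4.99 for Reg3a, -5.64 for Reg3d and -4.08 for Reg3g, 4 called. At an adjusted p under 0.05, Reg3a (-2.44), Reg3d (-2.99) and Reg3g (-2.34) passed, 3 members, with 3367 genes higher and 2767 lower. Library size without TMM gave 2909 higher and 560 lower genes and raised the median of all genes by 0.293. With each library left out in turn, the log2 fold change was from -2.60 to -1.63 for Reg1, -2.97 to -2.09 for Reg3a, -2.54 to -1.42 for Reg3b, -4.28 to -2.56 for Reg3d, -2.89 to -2.01 for Reg3g and 6.31 to 6.90 for Reg4, and from 0 to 1 member was called lower, Reg3d without the GUCY2Chi library of mouse 15. The count of lower genes was then from 512 to 1609 (under 1381 by more than 1.5 times without the GUCY2Chi library of mouse 2, 7 or 14 or the GUCY2Cmed library of mouse 2, 12, 14 or 15) and that of higher genes from 1637 to 2534. The GUCY2Chi library of mouse 15 was the highest of its group for Reg3d, which fixed a larger difference without it. Reg2 gave no value in the main test, and Reg3d none with at least 10 counts in every library.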

Other observations

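The level of Reg4 was from 0.151 to 0.294 times the summed level of the 16 enteroendocrine markers in GUCY2Chi libraries, and from 0.254 to 1.77 times in GUCY2Cmed libraries, where mouse 7 was highest and mouse 2 lowest. Against the 12 goblet cell markers it was from 0.714 to 11.9 and from 0.0149 to 0.0444. Against the Paneth list it was from 0.387 to 3.34 and from 0.0136 to 0.0303. Against the enterochromaffin markers, named below, it was from 0.453 to 1.43 and from 0.133 to 0.476. The goblet list had 0 genes called in either direction by edgeR (1 in each direction in DESeq2, 0 higher and 1 lower in limma-voom). At an unadjusted p under 0.05 in edgeR 3 of its genes were higher and 2 lower, beside at least 3367 and 2767 of all 15703 genes. The summed level of the goblet list was from 3542 to 24518 cpm in GUCY2Chi and from 6120 to 14362 cpm in GUCY2Cmed libraries.

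Among the other lists, 9 of 10 enterochromaffin markers, of serotonin-making endocrine cells, were higher in edgeR, led by Tph1, of serotonin synthesis (log2 fold change 9.37, adjusted p = 1.52e-06), and Slc18a1, a vesicular monoamine transporter gene (4.76, 5.20e-06). Of 10 stem and proliferation genes 4 were lower in edgeR, the cell cycle genes Top2a (-1.79, adjusted p = 0.00123), Mcm5 (-1.53, 0.00277), Birc5 (-1.83, 0.00354) and Ccnb1 (-1.66, 0.00813). In that test 13.9% of all genes were higher and 8.79% lower. The summed level of 12 T cell and myeloid genes was from 62.2 to 1126 cpm in GUCY2Chi and from 687 to 4942 cpm in GUCY2Cmed libraries, and most of it was Cd74 (340 and 2176 cpm on average, adjusted p = 0.0162 from edgeR) and H2-Ab1 (46.1 and 174 cpm, 0.0593), genes of antigen presentation through MHC class II. Of the 9 tested genes of this list these 2 alone had a log2 fold change below 0, the median was 0.45, and the T cell genes Cd3e and Cd8a had 4.15 and 5.68 cpm in GUCY2Chi and 3.01 and 3.49 cpm in GUCY2Cmed cells. Cd74, H2-Ab1, Cd3e and Cd8a were named after their values were seen.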
